A study of Mus musculus with 4 samples.

Results

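Chromosome 3 was represented by 2064 of the 41174 non-control probes, those whose coordinate in the array files lay on that chromosome, from base 3620141 to base 158940110 of a genome build that the sources used here do not name. The probes were set in order by start position and compared between mutant lines below 32 Mb, from 32 to 89 Mb, and from 89 Mb to the end. The chromosome and its 3 stretches were chosen on the measured ratios of these same arrays, because neighbouring genes shifted together there, so every ratio by position is given as a description and without a test. Of the 2064 probes, 1650 were detected, that is, both arrays of at least 1 line gave signal well above background in the mutant or in the wild-type channel, and 414 were not. The detected probes stood for 1110 genes, each read by its brightest probe, and 1104 of them had a value in both lines.

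The groups were neurospheres of the Dll1-5 mutant line, neurospheres of the Dll1-3 mutant line and wild-type neurospheres, all derived from neural stem cells of 129/Sv mice crossed with C57BL/6 and kept in serum-free medium with EGF. Neurospheres are free-floating clusters of dividing neural progenitors, and Dll1 is a ligand of Notch receptors. Total RNA of a mutant line and of wild type was hybridised together to each of 4 Agilent arrays, 2 arrays per line with the dyes swapped, and per the design text RNA was pooled from 3 preparations. Each line was therefore counted as 1 pooled replicate, and the spread between its 2 arrays may be technical. The labels do not settle whether a line's arrays shared 1 pool, what the mutations remove, or whether both lines were set against the same wild-type pools.

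A chromosome carries its genes in a fixed order, and neighbours on it need have nothing in common in function. In cultured stem cells that divide for many passages, a part of a chromosome can be gained or lost, and RNA of many neighbouring genes then shifts together, whatever those genes do. Neighbours can also shift together where gene families lie side by side, as the S100, Sprr and Gstm families do on this chromosome. The arrays measured RNA, DNA copy number was not analysed here, and the part of copy number in any value was not tested.

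Upstream sequences are shown for 4 genes that border a step of the levels fitted further on, in one of the lines or in the difference between them. Pmvk, the phosphomevalonate kinase of sterol synthesis, and Adar, which edits adenosine to inosine in double-stranded RNA, bordered the step in the Dll1-3 line. Csf1, the growth factor of macrophages, was the last gene before a step in the Dll1-5 line, and Ampd2, an AMP deaminase, was the first gene after the last step in the difference between the lines. The sequences are the 250 bases before each gene's start in RefSeq, build GRCm38.p6, whose coordinates differ from those of the array files, with CG dinucleotides in capitals. They lie at chr3:89454291-89454540 on the plus strand, chr3:89714772-89715021 on the plus strand, chr3:107760470-107760719 on the minus strand and chr3:108085403-108085652 on the minus strand.
Pmvk: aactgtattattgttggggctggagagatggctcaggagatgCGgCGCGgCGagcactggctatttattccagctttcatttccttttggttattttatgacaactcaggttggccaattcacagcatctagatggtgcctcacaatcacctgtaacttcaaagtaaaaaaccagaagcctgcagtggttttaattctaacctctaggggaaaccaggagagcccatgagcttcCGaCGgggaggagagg
Adar: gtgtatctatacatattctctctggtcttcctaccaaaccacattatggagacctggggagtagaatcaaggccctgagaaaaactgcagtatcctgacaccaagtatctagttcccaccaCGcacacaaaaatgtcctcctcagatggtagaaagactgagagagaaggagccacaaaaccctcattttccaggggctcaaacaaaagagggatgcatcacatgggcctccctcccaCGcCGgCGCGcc
Csf1: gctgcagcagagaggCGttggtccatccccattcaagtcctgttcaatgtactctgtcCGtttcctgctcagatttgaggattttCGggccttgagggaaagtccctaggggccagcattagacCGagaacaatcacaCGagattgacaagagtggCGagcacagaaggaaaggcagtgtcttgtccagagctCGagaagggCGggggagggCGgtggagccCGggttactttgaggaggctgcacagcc
Ampd2: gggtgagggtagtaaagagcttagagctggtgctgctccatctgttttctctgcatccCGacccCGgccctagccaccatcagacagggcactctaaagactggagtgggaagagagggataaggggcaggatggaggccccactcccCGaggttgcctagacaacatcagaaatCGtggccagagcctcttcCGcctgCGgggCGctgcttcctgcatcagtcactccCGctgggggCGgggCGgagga
The motif searched was CG, which reads the same on both strands. It occurred 6 times in the Pmvk window, 5 times in the Adar window and 10 times each in the Csf1 and Ampd2 windows. Of the windows of the same length before 27025 RefSeq genes, 91.7% held at least 1 CG, with a median of 6. The count describes these letters only.

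Along chromosome 3, RNA of the Dll1-5 line was lower than wild type over most of the first 92.1 Mb, higher over the stretch that follows, and lower again to the end. RNA of the Dll1-3 line was lower than wild type up to about 89 Mb and higher from there on. Both lines thus lay below wild type over the first part of the chromosome, and from 32 to 89 Mb Dll1-5 was the lower one. Past the Gstm genes the lines lay on opposite sides of wild type. They also did so in a short run of genes from 89.2 to 90.4 Mb. Values are log2 mutant over wild type, averaged over the 2 arrays of a line, where 0 is equality and negative values are lower in the mutant.

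Below 32 Mb, 225 probes were placed, 166 of them detected, for 118 genes. The median over the detected probes was -0.185 and -0.209 on the 2 Dll1-5 arrays, against -0.153 and -0.186 on the 2 Dll1-3 arrays. All 4 arrays were below 0 and the lines overlapped. Of the detected probes there, 72.9% were below wild type in Dll1-5 and 68.1% in Dll1-3, against 49.5% in Dll1-5 and 48.9% in Dll1-3 of all detected probes of the array.

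From 32 to 89 Mb, 651 probes were placed, 518 of them detected, for 329 genes. The median was -0.198 and -0.237 on Dll1-5 arrays, against -0.076 and -0.127 on Dll1-3 arrays. Both lines were below wild type on every array, and the Dll1-5 arrays were the lower ones. In this stretch 76% of detected probes were below wild type in Dll1-5 and 62.9% in Dll1-3.

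From 89 Mb to the end, 1188 probes were placed, 966 of them detected, for 663 genes. The median was -0.007 and -0.023 on Dll1-5 arrays, against 0.1 and 0.082 on Dll1-3 arrays, so the lines did not overlap. Of these probes 48.4% were above wild type in Dll1-5 and 62.6% in Dll1-3. The Dll1-5 median near 0 joined a high and a low part, given further on.

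The background offset compresses the ratios of dim probes, and the shift was wider among brighter probes, those above the median intensity of all detected probes. Their medians in Dll1-5 were -0.396 below 32 Mb, -0.433 from 32 to 89 Mb and -0.021 from 89 Mb on. In Dll1-3 the same medians were -0.387, -0.271 and 0.267. Over all brighter probes of the array the medians were -0.002 in Dll1-5 and -0.028 in Dll1-3. The dimmer detected probes had medians of -0.05, -0.064 and -0.009 in Dll1-5, and of -0.081, -0.025 and 0.034 in Dll1-3.

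The stretches also differed in what the choice did not use. Detected genes lay at 4.16 per Mb below 32 Mb, 5.77 per Mb from 32 to 89 Mb and 9.48 per Mb beyond. Clone and predicted-gene names made up 36.4%, 29.2% and 27.6% of them in that order, against 27.6% of all genes of the array. The share of genes that were bright was 48.3%, 55% and 52.5%, against 53.3% over the array.

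To see where the shifts began and ended, a piecewise constant level was fitted to the 581 brighter genes in chromosome order, a description chosen after the values were seen. In Dll1-5 the fit gave 3 levels. The first ran over 280 genes from Hnf4g at 3.6 Mb to Sprr2g at 92.1 Mb, with a median of -0.40 in Dll1-5 and -0.23 in Dll1-3. The second ran over 139 genes from Sprr2j-ps to Csf1 at 107.5 Mb, with 0.51 in Dll1-5 and 0.30 in Dll1-3. The third ran over 162 genes from Gstm5 at 107.7 Mb to Wls at 158.9 Mb, with -0.35 in Dll1-5 and 0.23 in Dll1-3. In the first run 78.6% of genes were below wild type in Dll1-5, in the second 13.7% and in the third 75.3%. The genes next to the first step lay near 0 on both sides of it. Sprr2e and Sprr2g, before it, had -0.16 and -0.22 in Dll1-5, and Sprr2j-ps and Sprr2k, after it, had 0.07 and 0.05.

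In Dll1-3 the same procedure gave 2 levels only. The first ran over 248 genes up to Pmvk at 89.2 Mb, with a median of -0.27, and the second over 333 genes from Adar at 89.6 Mb to Wls, with 0.25. Below wild type were 69.8% of genes before the step and 33.9% after it. Neither line had a step at 32 Mb, where the first boundary had been set. The place of the steps near 90 Mb moved with the processing. With median centring, with dimmer genes kept or without the second Dll1-5 array, the first Dll1-5 run ended at Chtop at 90.3 Mb. With median centring or without the first Dll1-3 array, the first Dll1-3 run ended at Atp8b2 at 89.7 Mb.

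**Figure D1:**
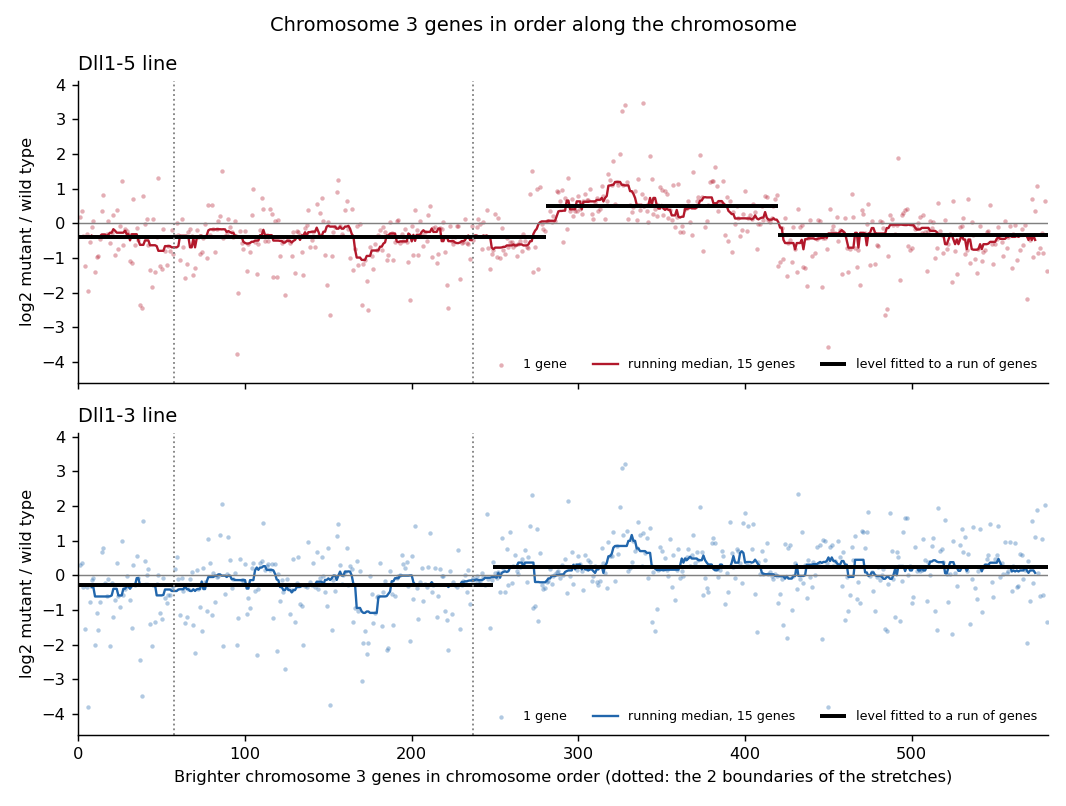
Log2 mutant over wild type of the 581 brighter chromosome 3 genes in chromosome order, Dll1-5 above and Dll1-3 below, with the running median of 15 genes and the fitted levels in black. The Dll1-5 levels were -0.40, 0.51 and -0.35, and the Dll1-3 levels were -0.27 and 0.25.

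The running medians of 15 genes showed how uneven the levels were within a run. In Dll1-5 they reached their lowest value, -1.06, around Gria2 at 80.4 Mb, and their highest, 1.19, around Rprd2 at 95.2 Mb. In Dll1-3 the lowest, -1.08, was around Glrb at 80.6 Mb, and the highest, 1.16, around Otud7b at 95.6 Mb. The low and the high place were thus almost the same in both lines. Gria2 and Glrb are a glutamate receptor and a glycine receptor subunit of neurons. In 5 Mb bins of brighter probes, the bin from 80 to 85 Mb had medians of -0.98 in Dll1-5 and -1.1 in Dll1-3 over 16 probes, and that from 95 to 100 Mb had 0.58 in Dll1-5 and 0.52 in Dll1-3 over 79. Both lines are read against wild type, so a shift that they share cannot be told apart from one in the wild-type RNA.

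The difference Dll1-5 minus Dll1-3 was fitted in the same way and gave 4 levels. Over 244 genes from Hnf4g to Flad1 at 89.2 Mb the median difference was -0.08. Over 29 genes from Cks1b at 89.2 Mb to S100a16 at 90.4 Mb it was -0.76. Over 152 genes from S100a4 at 90.4 Mb to Gstm1 at 107.8 Mb it was 0.19. Over the last 156 genes, from Ampd2 at 107.9 Mb to Wls, it was -0.75. The difference was below 0 for 56.1% of genes in the first run, 89.7% in the second, 31.6% in the third and 84.6% in the last.

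**Figure D2:**
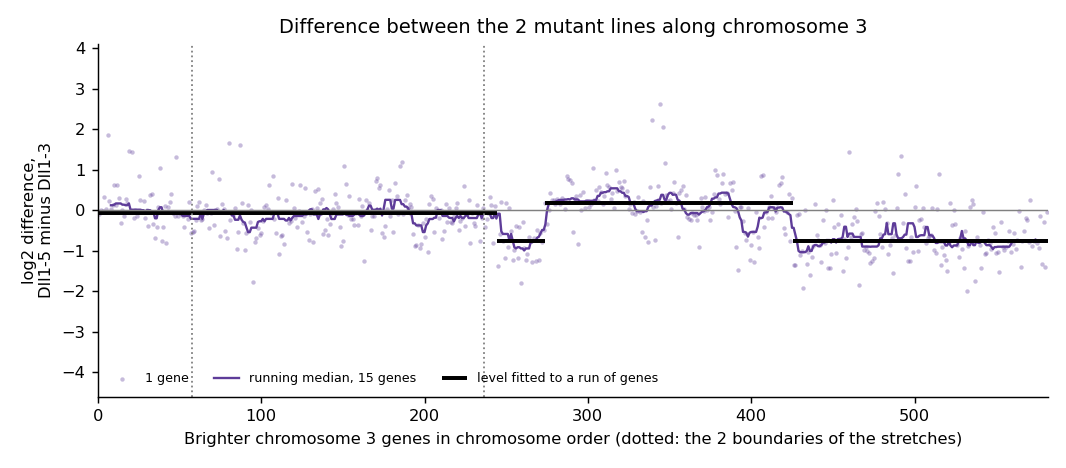
Difference Dll1-5 minus Dll1-3 in log2 ratio for the same 581 genes in chromosome order, with the running median of 15 genes and the fitted levels in black. The levels were -0.08, -0.76, 0.19 and -0.75.

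The arrays of a line lay close together in all 4 runs. From Cks1b to S100a16 the medians were -0.69 and -0.62 on Dll1-5 arrays, against 0.18 and 0.34 on Dll1-3 arrays. From S100a4 to Gstm1 they were 0.43 and 0.4 on Dll1-5 arrays, against 0.24 and 0.27 on Dll1-3 arrays. From Ampd2 to Wls they were -0.36 and -0.4 on Dll1-5 arrays, against 0.25 and 0.22 on Dll1-3 arrays. In the first run, up to Flad1, they were -0.37 and -0.4 on Dll1-5 arrays, against -0.2 and -0.31 on Dll1-3 arrays. The runs were fitted to the difference between the lines, so a parting of the lines within them follows from the fit. The arrays of the lines did not overlap in any run. In the first run the gap was narrow, with -0.37 in Dll1-5 nearest to -0.31 in Dll1-3. In the second and last runs the lines lay on opposite sides of wild type.

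**Figure D3:**
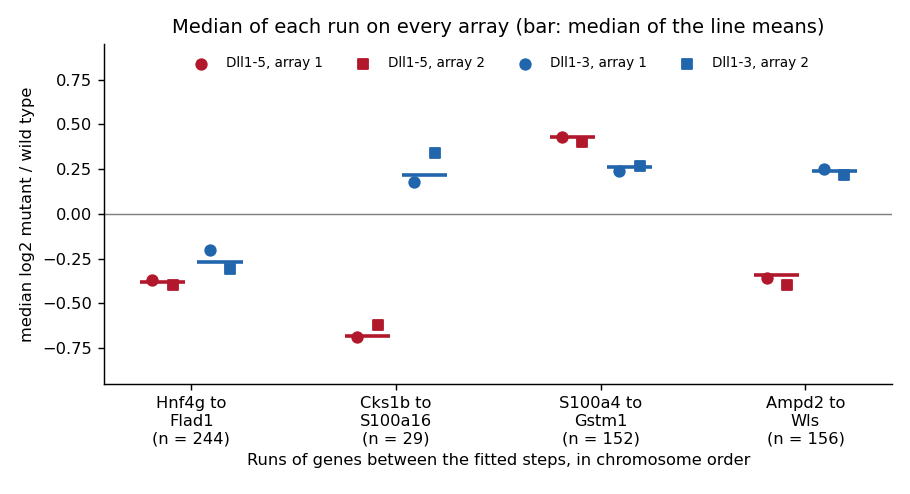
Median log2 mutant over wild type on each of the 4 arrays (circles array 1, squares array 2) for the 4 runs of genes between the fitted steps of the difference, Dll1-5 left of Dll1-3 in each run. From Ampd2 to Wls the Dll1-5 arrays sit at -0.36 and -0.4 and the Dll1-3 arrays at 0.25 and 0.22.

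Because each array held mutant and wild-type RNA, the difference between the lines was also read in each RNA alone, as log2 signal after the arrays were brought to 1 common intensity distribution. From Ampd2 to Wls, median mutant signal was 8.46 on Dll1-5 arrays and 9.41 on Dll1-3 arrays, while median wild-type signal was 8.96 on Dll1-5 arrays and 9.0 on Dll1-3 arrays. Gene by gene, the median difference in that run was -0.75 in mutant RNA and -0.03 in wild-type RNA. From Cks1b to S100a16 it was -0.89 in mutant RNA and -0.04 in wild-type RNA, and from S100a4 to Gstm1 it was 0.2 in mutant RNA and 0.02 in wild-type RNA. Over all 12319 brighter genes of the array it was 0.01 in mutant RNA and -0.01 in wild-type RNA. The runs had been fitted to the difference between the lines. In them the signals of the mutant RNAs parted by position, while those of the wild-type RNAs lay within 0.04 of each other.

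**Figure D4:**
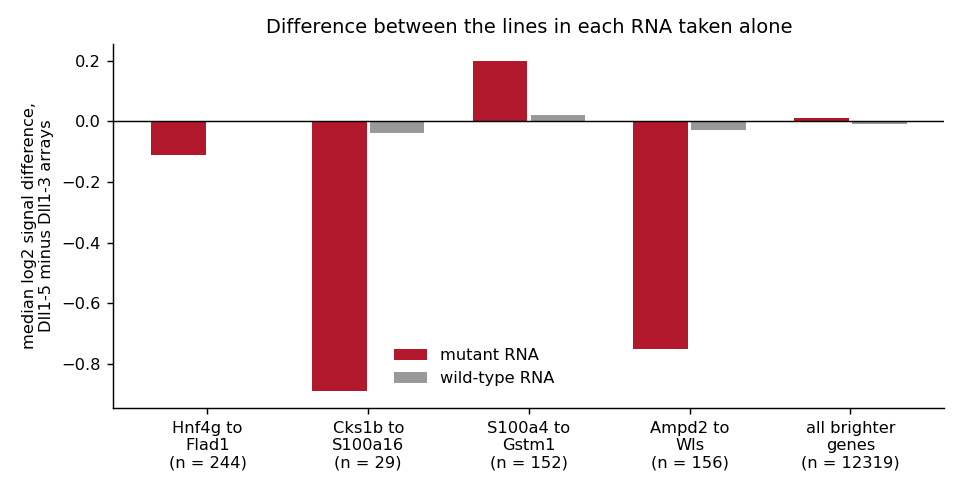
Median over genes of the log2 signal difference, Dll1-5 arrays minus Dll1-3 arrays, in mutant RNA (red) and in wild-type RNA (grey), for the 4 runs and for all 12319 brighter genes of the array. In the last run the bars are at -0.75 for mutant RNA and -0.03 for wild-type RNA.

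Set beside the other chromosomes, chromosome 3 had a median outside their range in Dll1-5, and within their range in Dll1-3 and in the difference. Its brighter probes had a median of -0.22 in Dll1-5, 0.03 in Dll1-3 and -0.15 in the difference. Over the 19 other chromosomes the Dll1-5 medians ran from -0.15 on chromosome 16 to 0.2 on chromosome 19, the Dll1-3 medians from -0.35 on chromosome 8 to 0.25 on chromosome 18, and the differences from -0.28 on chromosome 13 to 0.19 on chromosome X. Of 249 windows of 10 Mb with at least 15 brighter probes, 10 had a difference at or below -0.5, and 5 of those 10 were among the 14 windows of chromosome 3. These 5 covered 110 to 160 Mb without a gap, with differences from -0.87 to -0.65. The other 5 lay on chromosomes 6, 12, 13 and 15, the lowest at 100 to 110 Mb of chromosome 6 with -0.87. A Dll1-5 median at or below -0.4 was found in 11 windows, 6 of them on chromosome 3, and one at or above 0.4 in 6, with 1 on chromosome 3. No test of these counts was made.

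Just below the 32 Mb boundary, Zfp639, a zinc finger gene, had -0.80 in Dll1-5 and -0.57 in Dll1-3. Mfn1, a mitochondrial fusion protein, had -0.20 in Dll1-5 and -0.41 in Dll1-3. The other probe of Mfn1 had the opposite order, with -0.64 in Dll1-5 and -0.42 in Dll1-3. Gnb4, a G protein subunit, had -0.89 in Dll1-5 and -0.32 in Dll1-3. The other 2 probes of Gnb4 ran from -1.26 to -0.02 in Dll1-5 and from -0.62 to 0.04 in Dll1-3. Just above it, Actl6a of chromatin remodelling complexes had -0.36 in Dll1-5 and 0.17 in Dll1-3 (its other probe -0.43 in Dll1-5 and -0.86 in Dll1-3), the mitochondrial ribosome gene Mrpl47 had 0.01 in Dll1-5 and 0.53 in Dll1-3, and Ndufb5 of respiratory complex I had -0.34 in Dll1-5 and -0.10 in Dll1-3. Just below 89 Mb, Thbs3, Muc1 and Trim46 had -1.02, 0.05 and -0.08 in Dll1-5, and -0.83, 0.09 and -0.14 in Dll1-3. Just above it, Krtcap2, Dpm3 and Slc50a1 had -0.49, -0.35 and -0.10 in Dll1-5, and -0.07, -0.15 and -0.04 in Dll1-3.

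Around the step of the Dll1-3 line, the 5 brighter genes before it and the 5 after it overlapped, with Dll1-3 values of -1.53 to 1.76 before it and -0.48 to 0.4 after it. Pmvk, with its probe at chr3:89225544-89225603, had -0.85 and -0.92 on Dll1-5 arrays, against -0.12 and -0.15 on Dll1-3 arrays. Adar, at chr3:89559420-89559479, had -0.76 and -0.79 on Dll1-5 arrays, against 0.41 and 0.38 on Dll1-3 arrays. Adar's other probe stood at -0.17 in Dll1-5 and 1.38 in Dll1-3. Ube2q1, a ubiquitin-conjugating enzyme, had -0.98 in Dll1-5 and -0.07 in Dll1-3, with its other probe at -0.43 in Dll1-5 and 0.86 in Dll1-3, and Il6ra, an interleukin 6 receptor subunit, had 0.15 in Dll1-5 and 0.09 in Dll1-3. The step was thus one of the level over many genes and not of each gene beside it.

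In the short run from Cks1b to S100a16 most genes were lower in Dll1-5 than in Dll1-3. Cks1b, a subunit that binds cyclin-dependent kinases, had 0.30 and 0.47 on Dll1-5 arrays, against 1.71 and 1.82 on Dll1-3 arrays. Tpm3, a tropomyosin of the actin cytoskeleton, had -0.61 and -0.48 on Dll1-5 arrays, against 1.18 and 1.29 on Dll1-3 arrays. Neither gene's lines overlapped. Hax1, a mitochondrial protein that protects from cell death, had -0.21 and -0.07 on Dll1-5 arrays, against 1.05 and 1.11 on Dll1-3 arrays. Ilf2, which binds double-stranded RNA, had -0.63 and -0.41 on Dll1-5 arrays, against 0.58 and 0.86 on Dll1-3 arrays. Chtop, of mRNA export, had -0.72 in Dll1-5 and 0.51 in Dll1-3. Pbxip1, between Pygo2 and Pmvk in the order, went the other way with -1.32 in Dll1-5 and -1.53 in Dll1-3.

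Past S100a16 the level of the Dll1-5 line climbed above wild type and above Dll1-3. Bcas2, of the spliceosome, had 1.54 and 1.72 on Dll1-5 arrays, against 0.86 and 1.02 on Dll1-3 arrays. Trim33, a ubiquitin ligase of TGF-beta signalling, had 1.27 and 0.87 on Dll1-5 arrays, against 0.41 and -0.05 on Dll1-3 arrays. In both genes the Dll1-5 arrays were the higher ones and the lines did not overlap. Ap4b1, an adaptor subunit of vesicle traffic, had 1.23 in Dll1-5 and 0.55 in Dll1-3, and the growth signalling GTPase Nras had 1.21 in Dll1-5 and 0.92 in Dll1-3. The other probe of Nras had the opposite order, with 1.79 in Dll1-5 and 2.05 in Dll1-3.

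Inside the same run the order of the lines turned for a group of genes at 104 to 106 Mb. Slc16a1, a lactate transporter, had 0.50 and 0.78 on Dll1-5 arrays, against 1.37 and 1.71 on Dll1-3 arrays. Rhoc, a small GTPase of the cytoskeleton, had -0.82 and -0.85 on Dll1-5 arrays, against 0.62 and 0.66 on Dll1-3 arrays. Ddx20, an RNA helicase of the SMN complex, had 0.33 and 0.20 on Dll1-5 arrays, against 1.54 and 1.46 on Dll1-3 arrays. The small GTPase Rap1a, the ATP synthase subunit Atp5pb and the methylosome subunit Wdr77 had 0.14, 0.11 and 0.55 in Dll1-5, and 1.41, 0.76 and 1.47 in Dll1-3. These genes were singled out after their values were seen.

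Near 107.5 Mb the Dll1-5 line was above Dll1-3 again, and then the order turned within a few genes. Ahcyl1, a regulator of IP3 receptors, had 0.69 and 0.71 on Dll1-5 arrays, against 0.02 and 0.04 on Dll1-3 arrays. Csf1, at chr3:107537246-107537305, had 0.77 and 0.86 on Dll1-5 arrays, against -0.07 and 0.04 on Dll1-3 arrays. On these probes both were high in Dll1-5 and at wild-type level in Dll1-3. The other 2 probes of Ahcyl1 ran from 0.21 to 0.88 in Dll1-5 and from -0.61 to -0.07 in Dll1-3. The Gstm genes came next, enzymes that join glutathione to other molecules and whose near-identical copies can share RNA on a probe. Gstm5, Gstm3 and Gstm1 had -1.23, -1.02 and -1.51 in Dll1-5, and -0.79, -1.43 and -1.82 in Dll1-3. Then Ampd2, at chr3:107869855-107869914, had -0.68 and -0.46 on Dll1-5 arrays, against 0.70 and 0.85 on Dll1-3 arrays. Gnai3, an inhibitory G protein subunit, had -0.36 and -0.59 on Dll1-5 arrays, against 0.99 and 0.74 on Dll1-3 arrays.

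From Ampd2 on, 84.6% of the brighter genes were lower in Dll1-5 than in Dll1-3. Psma5, a proteasome subunit, had -0.80 and -0.70 on Dll1-5 arrays, against 0.32 and 0.40 on Dll1-3 arrays. Taf13, of the general transcription factor TFIID, had -1.24 and -1.33 on Dll1-5 arrays, against 0.38 and 0.23 on Dll1-3 arrays. Alg14, of protein glycosylation, had -0.76 and -0.68 on Dll1-5 arrays, against 1.21 and 1.03 on Dll1-3 arrays. These 3 genes were below wild type on both Dll1-5 arrays and above it on both Dll1-3 arrays. Ube2d3, a ubiquitin-conjugating enzyme, had -0.74 and -0.96 on Dll1-5 arrays, against 0.44 and 0.31 on Dll1-3 arrays. Tspan5, a tetraspanin of the cell membrane, had -0.79 and -0.97 on Dll1-5 arrays, against 1.25 and 0.96 on Dll1-3 arrays. The last gene of the order, Wls, which carries Wnt proteins to the cell surface, did not part the lines, with -1.38 in Dll1-5 and -1.34 in Dll1-3.

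Genes were next counted by size, as at least 2-fold on both arrays of a line, which is a fold rule and no test. In Dll1-5, 35 of 1109 chromosome 3 genes were higher, where 2.94% of all genes of the array were, and 77 were lower, where 3.44% were. In Dll1-3, 59 of 1105 were higher, where 4.47% of all genes were, and 78 were lower, where 5.73% were. By stretch, the higher genes of Dll1-5 numbered 2, 3 and 30, or 1.69%, 0.912% and 4.53% of the genes there. Its lower genes numbered 13, 30 and 34, or 11%, 9.12% and 5.14%. In Dll1-3 the higher genes numbered 1, 9 and 49, or 0.847%, 2.76% and 7.41%. Its lower genes numbered 16, 39 and 23, or 13.6%, 12% and 3.48%. The counts depended on the scaling. With each array centred on its median they were 12 higher and 31 lower in Dll1-5, and 24 higher and 32 lower in Dll1-3, and with the scanner software's ratios 57 higher and 134 lower in Dll1-5, and 98 higher and 126 lower in Dll1-3. The chromosome was chosen on these ratios, so its shares are not read against those of the array.

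Between the lines, a gene counted where both arrays of one line lay at least 2-fold beyond both arrays of the other. Dll1-5 was above Dll1-3 in 15 of 1104 chromosome 3 genes, where 1.84% of all genes of the array were. Dll1-5 was below Dll1-3 in 44, where 1.06% were. Of the 44, 40 lay from 89 Mb to the end (6.06% of the genes there), 4 from 32 to 89 Mb (1.23%) and 0 below 32 Mb. Of the 15, the same stretches from the end held 6, 5 and 4, or 0.909%, 1.53% and 3.39% of their genes. With each array centred on its median in place of the intensity-dependent dye correction, the 44 became 1 and the 15 became 3.

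Several of the highest genes of Dll1-5 lay near 95 Mb and were high in Dll1-3 too. Car14, a carbonic anhydrase, had 3.53 and 3.30 on Dll1-5 arrays, against 3.32 and 3.12 on Dll1-3 arrays, so the lines overlapped. Ciart, a repressor of the circadian clock, had 2.01 in Dll1-5 and 1.97 in Dll1-3, and Ttf2, a transcription termination factor further along, had 1.97 in Dll1-5 and 1.96 in Dll1-3. Tars2, a mitochondrial tRNA synthetase, had 1.79 in Dll1-5 and 1.25 in Dll1-3. The other probe of Ttf2 stood lower, at 0.46 in Dll1-5 and 0.23 in Dll1-3.

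The histone genes near 95 Mb differed among themselves in how the lines stood. H2ac19, a histone H2A gene, had 3.43 and 3.48 on Dll1-5 arrays, against 1.34 and 1.12 on Dll1-3 arrays. H4c14, a histone H4 gene, had 1.90 and 2.00 on Dll1-5 arrays, against 1.31 and 1.42 on Dll1-3 arrays. Both were above wild type on every array and higher in Dll1-5. Their neighbours H2bc21, H2ac18 and H3c14 had 0.85, 0.73 and 0.02 in Dll1-5, and 0.27, 0.65 and -0.09 in Dll1-3, while H2ac20 was lower in Dll1-5, with 0.35 in Dll1-5 and 1.09 in Dll1-3. Histone genes have near-identical copies on other chromosomes, so RNA of those copies can bind these probes. Txnip, which binds thioredoxin, had 0.43 and 0.41 on Dll1-5 arrays, against -1.67 and -1.57 on Dll1-3 arrays, and its other probe had 0.17 in Dll1-5 and -0.32 in Dll1-3. Palmd had 0.16 in Dll1-5 and -1.29 in Dll1-3, and its other probe showed no such gap, with 0.05 in Dll1-5 and 0.06 in Dll1-3.

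In Dll1-3 the highest genes beside Car14 included some of cell division and growth control. Psrc1, which binds the mitotic spindle, had 0.30 and 0.54 on Dll1-5 arrays, against 2.32 and 2.37 on Dll1-3 arrays. Spry1, an inhibitor of growth factor signalling, had 1.60 and 1.41 on Dll1-5 arrays, against 2.14 and 1.95 on Dll1-3 arrays. S100a13 had 1.51 in Dll1-5 and 2.30 in Dll1-3, and Depdc1a, of mitosis, had 0.63 in Dll1-5 and 2.03 in Dll1-3. Mnd1, of meiotic recombination, had 3.45 and 3.81 on Dll1-3 arrays. On the Dll1-5 arrays mutant RNA gave no Mnd1 signal well above background and wild-type RNA did so on only 1 array, so no Dll1-5 fold is given.

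The 6 lowest genes of each line were at least 2-fold lower on both arrays of the other line too, and lay on both sides of the steps. Only Vcam1 and Lxn were among the 6 lowest of both lines. Vcam1, an adhesion molecule of neural stem cells and vessels, had -3.85 and -3.26 on Dll1-5 arrays, against -3.88 and -3.73 on Dll1-3 arrays. Its other 2 probes stood between -0.31 and -0.17 in Dll1-5 and between -0.34 and 0.04 in Dll1-3. Lxn, an inhibitor of carboxypeptidases, had -2.63 and -2.68 on Dll1-5 arrays, against -3.69 and -3.81 on Dll1-3 arrays. Pfn2, an actin-binding profilin, had -2.07 in Dll1-5 and -2.69 in Dll1-3. Pcdh10, a protocadherin, was the lowest of all in Dll1-5, with -3.72 and -3.83, against -1.83 and -2.18 on Dll1-3 arrays. Its other 3 probes ran from -3.6 to -1.06 in Dll1-5 and from -1.27 to -0.88 in Dll1-3. Gucy1b1, a guanylate cyclase subunit, had -2.51 in Dll1-5 and -1.96 in Dll1-3. Camk2d, a calmodulin-dependent kinase, had -2.47 in Dll1-5 and -1.61 in Dll1-3, and Tram1l1 had -2.63 in Dll1-5 and -1.56 in Dll1-3. The other 2 probes of Gucy1b1 ran from -1.37 to -0.85 in Dll1-5 and from -1.01 to -0.63 in Dll1-3. The other 3 of Camk2d ran from -1.14 to -0.58 in Dll1-5 and from -1.2 to -0.16 in Dll1-3.

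Below 32 Mb, where the lines ran together, the genes furthest apart were higher in Dll1-5. Hey1, a repressor switched on by Notch signalling, had -1.97 and -1.93 on Dll1-5 arrays, against -3.93 and -3.66 on Dll1-3 arrays. Car2, a carbonic anhydrase of glia, had -0.39 and -0.78 on Dll1-5 arrays, against -2.01 and -2.08 on Dll1-3 arrays. Cyp7b1, an enzyme that hydroxylates oxysterols, had 0.24 and 0.23 on Dll1-5 arrays, against -1.24 and -1.14 on Dll1-3 arrays. Each was higher on both Dll1-5 arrays than on both Dll1-3 arrays. Nlgn1, a synaptic adhesion protein, had -2.44 in Dll1-5 and -3.49 in Dll1-3, and its other probe had only -0.05 in Dll1-5 and -0.23 in Dll1-3. In Dll1-3 mutant RNA, Nlgn1 was well above background on only 1 array, so its Dll1-3 value lies near the floor.

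From 32 to 89 Mb wide differences ran both ways. Fat4, an atypical cadherin, had -0.27 and -0.57 on Dll1-5 arrays, against -2.13 and -1.94 on Dll1-3 arrays. Sertm1 had 1.52 in Dll1-5 and 0.11 in Dll1-3. The other way, Serpini1, the protease inhibitor neuroserpin, had -1.04 and -0.94 on Dll1-5 arrays, against 0.33 and 0.19 on Dll1-3 arrays.

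Genes were then read by function. The lists were drawn up with earlier results of these data known, and their counts use the 2-fold rule, under which 2.94% of all genes of the array were higher and 3.44% lower in Dll1-5, and 4.47% were higher and 5.73% lower in Dll1-3. Of 40 genes of translation, the proteasome and basic upkeep, 3 were higher and 1 lower in Dll1-5, and 6 were higher and 2 lower in Dll1-3. Their median was -0.24 in Dll1-5 and 0.32 in Dll1-3, where that of all genes of the array was 0.005 in Dll1-5 and 0.006 in Dll1-3. The median of all chromosome 3 genes was -0.053 in Dll1-5 and 0.01 in Dll1-3. That of the brighter chromosome 3 probes was -0.22 in Dll1-5, close to the upkeep genes, and 0.03 in Dll1-3. By stretch, the 4 genes below 32 Mb had medians of -0.75 in Dll1-5 and -0.92 in Dll1-3, the 14 from 32 to 89 Mb had -0.24 in Dll1-5 and 0.04 in Dll1-3, and the 22 beyond had -0.13 in Dll1-5 and 0.59 in Dll1-3. None was at least 2-fold above, and 5 were at least 2-fold below, in Dll1-5 against Dll1-3. By that rule between the lines, 1.84% of all genes of the array were above and 1.06% below.

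Some single upkeep genes followed the order along the chromosome and others did not. Those named here include genes picked after their values were seen. Sec62, of protein entry into the endoplasmic reticulum, had -1.23 and -1.25 on Dll1-5 arrays, against -1.14 and -1.05 on Dll1-3 arrays. Impa1, of inositol metabolism, had -0.96 in Dll1-5 and -1.08 in Dll1-3. Both lay below 32 Mb and both lines were low. Between S100a4 and Csf1, the mitochondrial ribosome gene Mrps21 had 1.11 and 1.07 on Dll1-5 arrays, against 0.67 and 0.57 on Dll1-3 arrays. The proteasome genes Psmb4 and Psmd4 had 0.78 and 0.83 in Dll1-5, and 0.56 and 0.59 in Dll1-3. Wdr77, in the same run, went the other way, with 0.55 in Dll1-5 and 1.47 in Dll1-3. Past Ampd2, Eif4e, the cap-binding factor of translation, had 0.14 and -0.32 on Dll1-5 arrays, against 1.53 and 1.14 on Dll1-3 arrays. Sars, a tRNA synthetase, had -0.11 and 0.01 on Dll1-5 arrays, against 1.17 and 1.35 on Dll1-3 arrays. Psma5, also past Ampd2, had -0.75 in Dll1-5 and 0.36 in Dll1-3. Exosc8, of the RNA exosome, stood out in its stretch with 0.42 in Dll1-5 and 1.49 in Dll1-3, and its other probe had -0.05 in Dll1-5 and 0.12 in Dll1-3. In the same stretch Dhx36 and Rps3a1 were higher in Dll1-5, with -0.06 and -0.12, against -0.34 and -0.47 in Dll1-3. The other upkeep genes of that stretch were lower in Dll1-5.

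**Figure D5:**
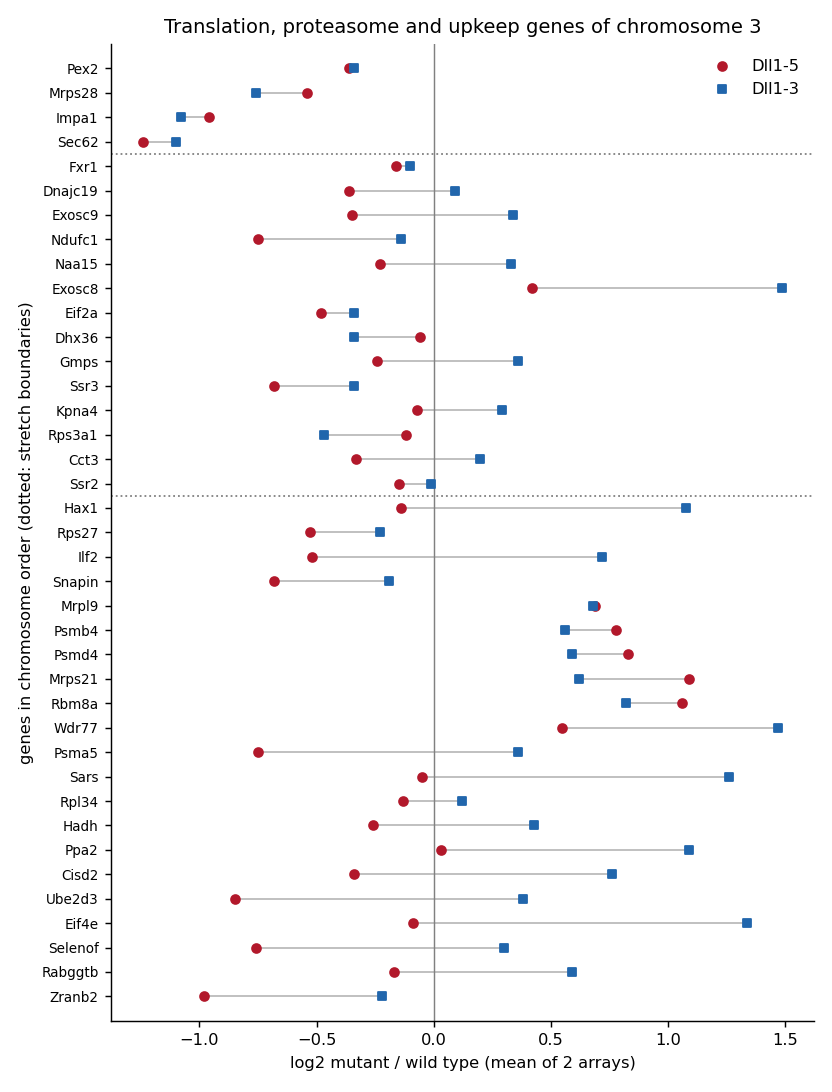
Mean log2 mutant over wild type of 39 of the 40 translation, proteasome and upkeep genes of chromosome 3, top to bottom in chromosome order, Dll1-5 as circles and Dll1-3 as squares, with dotted lines at the stretch boundaries. The genes from Psmb4 to Rbm8a are higher in Dll1-5, and those from Wdr77 on are lower in it.

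Of 12 genes of cell division, 0 were at least 2-fold higher in Dll1-5 and 6 in Dll1-3, and none was lower in either line. In Dll1-5 against Dll1-3, 3 were below, where 1.06% of all genes of the array were. Their median was 0.55 in Dll1-5 and 1.16 in Dll1-3, and they were spread over all 3 stretches. Ect2, of cytokinesis, lies below 32 Mb and had 0.75 and 0.83 on Dll1-5 arrays, against 1.53 and 1.57 on Dll1-3 arrays, and its other probe had -0.05 in Dll1-5 and 0.34 in Dll1-3. Cenpe, a motor of the kinetochore, lies past Ampd2 and had 0.55 and 0.61 on Dll1-5 arrays, against 1.94 and 1.94 on Dll1-3 arrays. Smc4, of condensin, had 0.91 in Dll1-5 and 1.13 in Dll1-3, and the cyclin Ccna2 had 0.53 in Dll1-5 and 1.04 in Dll1-3. Setdb1, a histone methyltransferase, was the 1 member more than 0.1 higher in Dll1-5, with 0.79 against 0.35 in Dll1-3. It lies between S100a4 and Csf1.

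Of 22 neuronal genes, 7 were lower in Dll1-5 and 6 in Dll1-3, and none was higher. Their medians were -0.25 in Dll1-5 and -0.18 in Dll1-3. Gria2 had -2.38 and -2.31 on Dll1-5 arrays, against -3.23 and -2.89 on Dll1-3 arrays, and its other probe had -0.30 in Dll1-5 and -0.29 in Dll1-3. Syt11, a synaptotagmin, had -2.44 in Dll1-5 and -2.16 in Dll1-3, and its other 4 probes ran from -2.19 to 0.6 in Dll1-5 and from -1.7 to -0.33 in Dll1-3. Glrb had -1.17 in Dll1-5 and -1.96 in Dll1-3. Sort1, a sorting receptor, and Ank2, an ankyrin, both past Ampd2, had -1.41 and -0.94 in Dll1-5, and -0.40 and -0.25 in Dll1-3.

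Of 13 genes of neural stem cells, glia and brain matrix, 4 were lower in each line, 0 were higher in Dll1-5 and 2 were higher in Dll1-3, which were Slc16a1 and the fatty acid elongase Elovl6. Bcan, a brain matrix proteoglycan, had -2.43 and -2.02 on Dll1-5 arrays, against -2.10 and -1.71 on Dll1-3 arrays. Nes, the intermediate filament nestin of neural stem cells, had -1.13 in Dll1-5 and -0.30 in Dll1-3. Of 14 transcription regulators, 2 were lower in each line and none was higher. Sox2, a factor that keeps neural stem cells undifferentiated, had -1.54 and -1.44 on Dll1-5 arrays, against -1.47 and -1.39 on Dll1-3 arrays, while its other probe had -0.02 in both. Lmo4 had -1.08 in Dll1-5 and -1.05 in Dll1-3, and Foxo1 had -0.82 in Dll1-5 and -0.94 in Dll1-3.

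Of 24 genes of growth factors and their signalling, 2 were higher and 2 lower in Dll1-5, and 1 was higher and 3 lower in Dll1-3. Pdgfc, a ligand of PDGF receptors, had -1.06 in Dll1-5 and -1.61 in Dll1-3, its other 2 probes ran from -1.01 to -0.01 in Dll1-5 and from -1.58 to 0.03 in Dll1-3, and Tm4sf1, a membrane protein, had -1.54 in Dll1-5 and -2.18 in Dll1-3. Bmpr1b, a BMP receptor, was not well above background in Dll1-3 mutant RNA and was at least 3.46-fold lower there. Of 3 genes of the Notch pathway, Hey1 was lower in both lines, the receptor gene Notch2 had 0.06 in Dll1-5 and -0.17 in Dll1-3, and Aph1a, a gamma-secretase subunit, had 0.37 and 1.83 on Dll1-5 arrays, against 0.96 and 1.36 on Dll1-3 arrays. The Aph1a arrays of Dll1-5 differed too widely for its mean to be placed.

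The S100 genes, which encode small calcium-binding proteins, straddled a step. S100a1, S100a13 and S100a16, before it, had 0.85, 1.51 and -1.42 in Dll1-5, and 1.42, 2.30 and -0.93 in Dll1-3. Past it, S100a6, S100a11 and S100a10 had 0.78, 0.94 and 0.97 in Dll1-5, and 0.13, 0.09 and 0.30 in Dll1-3. S100a3, S100a4, S100a5 and S100a9, also past it, had 0.03, -0.69, -0.1 and -0.07 in Dll1-5, and 0.01, -0.88, -0.09 and 0.19 in Dll1-3. The members before the step were thus lower in Dll1-5 than in Dll1-3, and those past it were mixed. Of the 10 measured, 1 was higher and 1 lower in Dll1-5, and 2 were higher and 0 lower in Dll1-3. Of 10 glutathione and antioxidant genes, 0 were higher and 2 lower in Dll1-5, and 1 was higher and 3 lower in Dll1-3. Gclm, which helps make glutathione, had 0.25 and 0.26 on Dll1-5 arrays, against 1.17 and 1.33 on Dll1-3 arrays, and Mgst2 had 0.52 in Dll1-5 and 0.78 in Dll1-3.

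The samples were also checked for their labels and for the cells they held. The probe for Dll1 itself had -1.65 and -1.64 on Dll1-5 arrays, against -3.31 and -3.22 on Dll1-3 arrays, and whether it lies in the altered part of the gene is not given. All 8 neural stem cell markers were above background in every mutant and every wild-type channel, with medians of -0.5 in Dll1-5 and -0.54 in Dll1-3. Markers of neurons (median -1.05 in Dll1-5 and -1.07 in Dll1-3) and of astrocytes (-0.58 in Dll1-5 and -1.02 in Dll1-3) were lower than wild type in both lines. Summed neuron marker signal was 5856 to 6173 in Dll1-5 and 3106 to 3592 in Dll1-3, against 14819 to 15472 in wild type on the 4 arrays. Summed astrocyte marker signal was 19575 to 22232 in Dll1-5 and 15451 to 18105 in Dll1-3, against 84932 to 111470 in wild type. Oligodendrocyte lineage markers had medians of -0.01 in Dll1-5 and -0.5 in Dll1-3, those of microglia 0.0 in Dll1-5 and -0.01 in Dll1-3, and those of vessels and fibroblasts -0.02 in Dll1-5 and -0.03 in Dll1-3. Summed vessel and fibroblast marker signal was 3407 to 3453 in Dll1-5 and 3652 to 3685 in Dll1-3, against 5688 to 5912 in wild type. For neural stem cell markers it was 76438 to 79933 in Dll1-5 and 56007 to 68479 in Dll1-3, against 101101 to 113284 in wild type. In the same order the sums were 30926 to 33671, 16562 to 17588 and 33643 to 36124 for the oligodendrocyte lineage. For microglia they were 712 to 713, 668 to 685 and 675 to 718. Mog, Itgam, P2ry12 and Pecam1 were above background in no mutant channel, and Mog, Itgam and Tek in no wild-type channel. In bulk RNA, fewer cells of a type and less RNA per cell cannot be told apart. Without the cell division, glial, neuronal and marker genes the stretch medians were -0.20, -0.18 and -0.01 in Dll1-5, and -0.19, -0.09 and 0.07 in Dll1-3. The lists held 12, 13 and 22 measured genes of 1110 on the chromosome, so leaving them out could hardly move a median. The part of cell types in the shifts was not tested.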

How the data were processed

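Total RNA of mutant and wild-type neurospheres was read on 4 two-colour arrays, 2 per line with swapped dyes. The authors deposited scanned intensity values made with Agilent Feature Extraction 8.1.1.1 (submitters' processing notes). Log10 ratios of Cy5 over Cy3 from the scanner software stand beside them, per the file headers. The deposited table of values was log10 too. Its slope against scanner ratios of mutant over wild type was -1.0 on each array with r from -0.962 to -0.954, so it ran as wild type over mutant, and its column medians were -0.03 to 0.01. Its centring was not stated in these sources, and it served as an alternative.

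Mean signals were corrected for local background by normexp with an offset of 50 and normalised by loess within each array (span 0.3) in limma 3.58.1 and R 4.3.3, with data.table, version 1.17.8. Of 43790 spots per array, 2256 control spots and 27 to 115 outlier spots per array had weight 0 and were left out, and saturated spots were kept. Log2 ratios of the deposited intensities were turned to mutant over wild type, spots of a probe were averaged, and each line is the mean of its swapped arrays. Above background were 80 to 82.1% of probes per channel, and precision is limited by how few arrays there were. Of all probes 34447 (83.7%) were detected, and of those on chromosome 3 79.9%. A gene was read by its brightest probe, among those matched by accession where there were any. Of the 1110 genes, 692 were named by accession, 97 by symbol and 46 by synonym in RefSeq, and 275 keep the file's name. The 19 probes on unplaced chromosome 3 sequence were not used. Signals of single channels were taken after Aquantile scaling.

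Runs of genes were found by least absolute deviations on genes above the median intensity, with at least 8 genes a run, at most 12 runs and a penalty on each step. The procedure was also run on simulated data, whose outcome is not given here and is not used for the places of the steps. Python 3.11.15, numpy 2.4.6, pandas 2.3.3 and matplotlib 3.10.9 were used.

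The members, gene lists and comparisons were chosen with earlier results of these data known, and the fit of runs, its alternatives and the omission of marker lists after the values were seen. Named genes were, in each line, the 6 highest and 6 lowest with at least 2-fold on both arrays. Added to them were the 3 highest and 3 lowest differences per stretch whose arrays do not overlap, the 3 genes on each side of 32 and 89 Mb, and up to 5 list members of largest mean size, clone names passed over. Genes beside the fitted steps and some genes within the runs (such as Tpm3, Rhoc, Taf13, Bcas2 and Eif4e) were named after their values were seen. Some genes that these choices name are not reported here. Alternatives were an offset of 10 or no background correction, scanner ratios, median centring, the deposited values, other filters on dim probes, a single probe per gene, gene lists left out, moved boundaries and each array left out.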

Additional observations from a re-analysis of the deposited data

Results flagged for a closer look

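For 1 of the 3 stretches, and for 2 of the genes named by rule with a size of at least 0.5 asked on each array, every array of 1 line lay on the other side of wild type from every array of the other line. The difference between the lines was not tested in any of them. From 89 Mb to the end, the median over detected probes was below 0 on both Dll1-5 arrays and above 0 on both Dll1-3 arrays, and the median of Dll1-5 minus Dll1-3 was -0.06. The Dll1-5 medians, -0.007 and -0.023, were about as small as those of all detected probes of the array, 0.016 and -0.012, and with undetected probes included they were -0.017 and 0.002, on both sides of 0. Alg14 was below wild type by at least 0.5 on both Dll1-5 arrays and above it by as much on both Dll1-3 arrays, with a difference of -1.84. Tspan5 did the same with a difference of -1.98. Other genes described above also lay on opposite sides, among them Rhoc, which reached that size but was named after its values were seen, and, with smaller values on some arrays, Adar, Tpm3, Hax1, Ilf2, Serpini1, Ampd2, Gnai3, Psma5, Taf13 and Ube2d3. Groups of 2 arrays were too small to look for outlying samples.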

How the results depend on the processing

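No stretch median and none of 1050 recomputed values of the 75 named genes changed sign where it had been called, and the cause of each move below was not tested unless stated. Medians are given for below 32 Mb, 32 to 89 Mb and 89 Mb on, Dll1-5 before Dll1-3. No background correction: -0.17, -0.16, -0.01 and -0.15, -0.08, 0.06. Offset of 10, which compresses dim ratios less: -0.26, -0.28, -0.02 and -0.28, -0.15, 0.12. Scanner ratios: -0.36, -0.38, -0.02 and -0.33, -0.18, 0.19. Deposited table: -0.37, -0.38, -0.02 and -0.33, -0.18, 0.18. Median centring: -0.18, -0.18, -0.02 and -0.20, -0.08, 0.10. All probes, dim ones included: -0.06, -0.09, -0.01 and -0.05, -0.03, 0.06. Brighter probes: -0.40, -0.43, -0.02 and -0.39, -0.27, 0.27. With 1 probe per gene: -0.12, -0.15, -0.01 and -0.14, -0.05, 0.06. Boundaries 5 Mb lower: -0.17, -0.20, -0.03 and -0.14, -0.10, 0.06. Boundaries 5 Mb higher: -0.20, -0.14, -0.01 and -0.14, -0.03, 0.07. Leaving out 1 array gave -0.21 to -0.18, -0.24 to -0.20 and -0.02 to -0.01 in Dll1-5, and -0.19 to -0.15, -0.13 to -0.08 and 0.08 to 0.10 in Dll1-3. Counts of genes higher and lower in Dll1-5, higher and lower in Dll1-3, and Dll1-5 above and below Dll1-3 were 57, 134, 98, 126, 29 and 83 with scanner ratios. They were 55, 132, 96, 125, 27 and 80 with the deposited table, and 12, 31, 24, 32, 3 and 1 with median centring. Offset 10, no background correction and other filters kept each count within 1.5 times.

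The fits of runs gave 3, 2 and 4 runs in Dll1-5, Dll1-3 and the difference under each alternative and without each array. The first Dll1-5 run, of 280 genes, had 270 with median centring and without the second Dll1-5 array. With dimmer genes kept, the levels were -0.16, 0.15 and -0.11 in Dll1-5, -0.09 and 0.07 in Dll1-3, and -0.04, -0.57, 0.14 and -0.15 in the difference, whose last run then began at Magi3 (103.4 Mb). With median centring they were -0.11 and 0.47 in Dll1-3, and the runs up to Flad1 and from S100a4 of the difference were -0.15 and 0.09. Up to Flad1 the level of the difference was -0.12 with scanner ratios, -0.13 with the deposited table and -0.05 without the second Dll1-5 array. No paired analysis was possible because the results come from no test and each line is 1 pooled replicate whose replicate number is the dye orientation. Limits are that each line was counted as 1 pooled replicate, wild type shared in kind by both lines, and compressed ratios of dim probes.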
